A study of Mus musculus with 6 samples.

Results

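The most abundant small structured RNAs in the non-coding transcript table of RAW264.7 cells, a mouse macrophage line, are described here across 6 RNA sequencing libraries. An abundant transcript of less certain identity is described with them. Together they are 7 of the 24817 features listed, chosen by their read counts and positions. All but MSTRG.25364.11 lie at genes of short structured RNAs. MSTRG.25364.11, on chromosome 17, is 926 bases long and met no annotated pair of ends exactly. By summed count they held ranks 1, 2, 4, 5, 8, 9 and 10 of the table. The lowest of them had 88743 reads in all, and the next feature below it had 77315. Overlapping transcripts share reads, so the 7 features were summed into 5 genomic intervals. Since abundance chose them, their levels are given as a description.

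The LPS_ES_PMMA cells received bacterial lipopolysaccharide (LPS) for 24 h, after which they grew in extract medium of a polymethyl methacrylate (PMMA) bone cement with enoxaparin sodium, a low-molecular-weight heparin. The LPS_PMMA cells had the same LPS stimulus and then extract medium of cement without enoxaparin. Each group holds 3 libraries, numbered 1 to 3 in the titles, and values are given in that order. The titles and treatment labels of the second group name PMMA, but its descriptions and table columns name LPS alone. RAW264.7 is a single transformed line, labelled with an abdominal origin, so the libraries do not sample animals. The labels do not say whether the replicates are separate cultures; if they are not, the p-values here reflect technical spread between libraries. Of 7 macrophage marker genes looked for by name in the table, 1 (Adgre1) had features, so the labelled cell type could hardly be checked; features of Adgre1 had 66 to 161 reads in LPS_ES_PMMA libraries and 121 to 158 in LPS_PMMA libraries. Of 7 marker genes of other cell types, 2 had features, Krt8 of epithelium and Cd3e of T cells. Krt8 had 115 to 220 reads in LPS_ES_PMMA libraries and 63 to 95 in LPS_PMMA libraries. Cd3e had only 1 to 5 reads in LPS_ES_PMMA libraries and 1 to 2 in LPS_PMMA libraries. Whether these reads come from such cells was not tested.

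7SL, Rmrp, Rpph1 and U1 work as parts of ribonucleoproteins and carry no protein code. 7SL RNA is the scaffold of the signal recognition particle, which brings ribosomes making secreted and membrane proteins to the endoplasmic reticulum, a route that cytokine-secreting macrophages use heavily. Rmrp is the RNA of RNase MRP, a ribonuclease of ribosomal RNA processing, Rpph1 is the RNA of RNase P, which trims the leader from transfer RNA precursors, and U1 is the spliceosomal RNA that pairs with the start of an intron. RNA polymerase III makes 7SL, Rmrp and Rpph1, whereas RNA polymerase II makes U1.

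The table names only Rmrp among the 7. The others are transcripts assembled by the authors (MSTRG identifiers), whose positions differ by a local shift from GENCODE M21, the annotation of GRCm38 (mm10), the build that the submitters' processing notes name. They were therefore tied to genes by the distance between their ends. MSTRG.12264.1, on chromosome 12 from 69206069 to 69408256, spanned 202188 bases, and the stretch that opens with Rn7s1 and closes with Rn7s2, the annotated 7SL genes, spanned 202187. MSTRG.17528.3, on chromosome 14 from 51044906 to 51045224, and the annotated Rpph1 both spanned 319 bases. MSTRG.9708.1, on chromosome 11 from 87313693 to 87317705, and the stretch between the outer ends of the U1 copies Rnu1a1 and Gm22068 both spanned 4013 bases. The same shift was found for 2 of 76 other assembled transcripts on chromosome 12, 7 of 72 on chromosome 14 and 13 of 172 on chromosome 11. MSTRG.25364.11, on chromosome 17 from 40153888 to 40159723, met no annotated pair of ends exactly. It is called the chromosome 17 interval. At the shift of the nearest matched transcript, 3.77 Mb away, it would cover CT010467.1, which is annotated as ribosomal RNA, beside Gm26917, Gm42418 and AY036118.

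The annotated sequences of Rmrp, Rpph1 and U1 are shown because the counts below are read counts on these short, GC-rich molecules. They come from GENCODE M21 (GRCm38): Rmrp at chr4:43492788-43493058 (minus strand), Rpph1 at chr14:50807468-50807767 (minus) and Rnu1a1 at chr11:87422867-87423030 (plus). They are DNA letters, 5′ to 3′, of the whole transcript except in Rpph1, which is given from base 1 to base 300. Capitals in Rmrp and Rpph1 mark the 2 longest runs that both share, each of 9 bases. Capitals in Rnu1a1 mark the run that is complementary to the consensus start of an intron.
Rmrp: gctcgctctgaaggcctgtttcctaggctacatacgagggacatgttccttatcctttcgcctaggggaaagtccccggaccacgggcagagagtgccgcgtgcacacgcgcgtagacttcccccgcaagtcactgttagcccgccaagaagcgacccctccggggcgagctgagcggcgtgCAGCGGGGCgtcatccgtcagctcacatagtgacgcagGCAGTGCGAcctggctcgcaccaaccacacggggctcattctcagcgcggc
Rpph1 (bases 1 to 300): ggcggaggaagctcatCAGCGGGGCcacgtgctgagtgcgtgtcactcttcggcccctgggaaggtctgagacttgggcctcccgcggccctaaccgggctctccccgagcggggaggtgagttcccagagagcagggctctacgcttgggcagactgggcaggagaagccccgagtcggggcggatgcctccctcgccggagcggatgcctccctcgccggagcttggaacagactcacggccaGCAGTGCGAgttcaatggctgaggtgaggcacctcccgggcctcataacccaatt
Rnu1a1: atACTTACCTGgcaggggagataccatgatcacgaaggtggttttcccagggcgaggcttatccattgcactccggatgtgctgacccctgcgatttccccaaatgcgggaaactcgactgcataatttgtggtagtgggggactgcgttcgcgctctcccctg

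The U1 copies Rnu1a1 and Gm22068 differed at 0 of their 164 bases, so a read inside either cannot be assigned to 1 copy by its sequence, and the U1 interval does not separate them. GC content was 64.2% in Rmrp, 67.1% in Rpph1 and 55.5% in Rnu1a1. The shared runs of Rmrp and Rpph1 began at bases 183 and 221 of Rmrp, and in the same order at bases 17 and 246 of Rpph1.

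7SL, the RNA scaffold of the signal recognition particle, took 46.1%, 28.7% and 45.6% of the column total in LPS_ES_PMMA 1 to 3, against 64.4%, 57.4% and 51.4% in LPS_PMMA 1 to 3. Every LPS_ES_PMMA library lay below every LPS_PMMA library, and LPS_ES_PMMA 2 lay far below its own group. The column total is the sum of counts over the listed features, 1123551 in LPS_ES_PMMA 2 and 2877523 to 3697638 in the other libraries. The 95% Wilson intervals cover counting error only. They were as narrow as 46.0 to 46.1% in LPS_ES_PMMA 1 and 28.6 to 28.8% in LPS_ES_PMMA 2, well inside the spread between libraries. Whether depth bears on the shares was not tested. The mean share was 40.1% ± 9.89 in LPS_ES_PMMA and 57.7% ± 6.50 in LPS_PMMA (SD, n = 3 each), a difference of -17.6 percentage points. The exact two-sided permutation test gave p = 0.1, the smallest that 3 against 3 libraries allow, so it cannot reach the threshold of 0.05. Without LPS_ES_PMMA 2 the difference was -11.9 points. Of the 8871 features and summed intervals tested, 3.11% had shares that did not overlap and were lower in LPS_ES_PMMA, and 34.5% had shares that did not overlap and were higher.

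**Figure D1:**
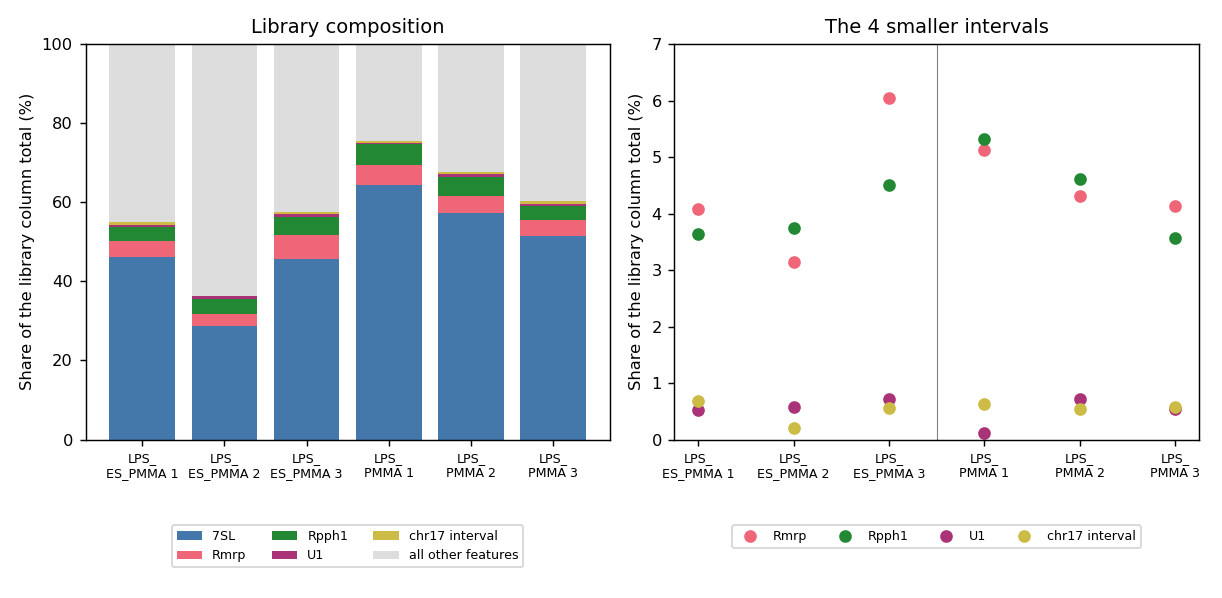
Left, the share of each library's column total (percent) taken by the 5 intervals and by all other features; right, the shares of the 4 smaller intervals, 1 point per library. 7SL lies between 28.7 and 46.1% in LPS_ES_PMMA libraries and between 51.4 and 64.4% in LPS_PMMA libraries, whereas the smaller intervals overlap between the groups.

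The table covers only part of each library. The FPKM columns imply library totals, in units of 1000000 reads, of 4.50, 2.48 and 4.31 in LPS_ES_PMMA 1 to 3 and of 4.48, 4.15 and 3.87 in LPS_PMMA 1 to 3. Over those totals 7SL took 26.3% ± 11.5 of the reads in LPS_ES_PMMA and 45.4% ± 7.51 in LPS_PMMA (SD, n = 3 each). The groups did not overlap, but how common that is among all features over these totals was not tested. A share falls when other RNAs take more of the library, and in bulk RNA fewer cells with an RNA and less of it per cell cannot be told apart.

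Rmrp is the RNA of RNase MRP. Its 133315, 35285 and 185473 reads were 4.09%, 3.14% and 6.04% of the column total in LPS_ES_PMMA 1 to 3. Its 189765, 139841 and 119014 reads were 5.13%, 4.30% and 4.14% in LPS_PMMA 1 to 3. The highest and the lowest share both fell in LPS_ES_PMMA libraries, and the groups overlapped. Means were 4.42% ± 1.48 in LPS_ES_PMMA and 4.52% ± 0.533 in LPS_PMMA (exact permutation p = 0.8, two-sided, n = 3 each). Without LPS_ES_PMMA 2, the shallow library, the difference was 0.54 points in the other direction. Rmrp lies on chromosome 4 on the minus strand, and the table classes it as exonic antisense to Ccdc107; no source used here says whether the counting used strand, so reads of both genes may mix.

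Rpph1, the RNA of RNase P, had 118892, 42060 and 138303 reads in LPS_ES_PMMA 1 to 3, against 196538, 150095 and 102828 in LPS_PMMA 1 to 3. The shares were 3.65%, 3.74% and 4.50% in the LPS_ES_PMMA libraries, against 5.32%, 4.62% and 3.57% in the LPS_PMMA libraries. The lowest share was that of LPS_PMMA 3, so the groups overlapped although the LPS_ES_PMMA mean was lower. The means were 3.96% ± 0.470 in LPS_ES_PMMA and 4.50% ± 0.877 in LPS_PMMA (exact permutation p = 0.5, two-sided, n = 3 each).

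U1, which recognises the start of introns, was counted under MSTRG.9708.1 with 17155, 6408 and 22005 reads in LPS_ES_PMMA 1 to 3, against 4416, 23395 and 15364 in LPS_PMMA 1 to 3. LPS_PMMA 1 was low, at 0.119% of its column total, while the other libraries held 0.526 to 0.720%. A pair of further transcripts of the same assembled gene, MSTRG.9708.2 and MSTRG.9708.3, had 14766 and 4723 reads in LPS_PMMA 1 and 0 in every other library. With these included, LPS_PMMA 1 held 23905 reads or 0.646%, within the range of the others. The mean share of U1 was then 0.604% ± 0.0998 in LPS_ES_PMMA and 0.633% ± 0.094 in LPS_PMMA (exact permutation p = 0.7, two-sided, n = 3 each). With MSTRG.9708.1 alone the LPS_PMMA mean was 0.458% ± 0.307, and the difference had the opposite sign.

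The chromosome 17 interval had 22412, 2238 and 17033 reads under MSTRG.25364.11 in LPS_ES_PMMA 1 to 3, against 23471, 17600 and 16781 in LPS_PMMA 1 to 3. LPS_ES_PMMA 2 stood apart at 0.199% of the column total, and the other 5 libraries lay between 0.542 and 0.687%. Means were 0.480% ± 0.252 in LPS_ES_PMMA and 0.587% ± 0.047 in LPS_PMMA (exact permutation p = 0.8, two-sided, n = 3 each). Without LPS_ES_PMMA 2 the LPS_ES_PMMA mean was the higher by 0.034 points.

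Levels were compared per length of transcript in FPKM, the authors' reads per kilobase and per 1000000 reads. The lengths are those of the listed transcripts. For 7SL they were 472 or 473 bases and for U1 316, whereas each annotated gene has 300 and 164 bases. For Rmrp and Rpph1 they were 271 and 298 bases, against 271 and 319 annotated. A shorter length would raise the levels of 7SL and U1 against those of Rmrp and Rpph1. 7SL averaged 557603 ± 244165 FPKM in LPS_ES_PMMA and 962306 ± 159083 in LPS_PMMA. Rmrp averaged 106924 ± 53199 in LPS_ES_PMMA and 131373 ± 22354 in LPS_PMMA, and Rpph1 averaged 84461 ± 25647 in LPS_ES_PMMA and 119254 ± 29175 in LPS_PMMA (SD, n = 3 each). 7SL lay above Rmrp in 6 of 6 libraries, and Rpph1 lay above U1 in 6 of 6. Rmrp lay above Rpph1 in 5 of 6 libraries, and in 4 of 6 with every transcript of the Rpph1 interval counted, so these neighbours did not differ beyond their spread. U1, with all 3 of its transcripts, averaged 12139 ± 3990 FPKM in LPS_ES_PMMA and 16675 ± 3682 in LPS_PMMA. It lay above the chromosome 17 interval, at 3542 ± 2291 FPKM in LPS_ES_PMMA and 4973 ± 597 in LPS_PMMA for MSTRG.25364.11, in 5 of 6 libraries with the 7 features alone, the exception being LPS_PMMA 1, and in 6 of 6 with every transcript of both counted.

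Transcripts of 1 interval divided its reads differently from library to library. In the 7SL interval MSTRG.12264.1 and the transcripts of MSTRG.12263 have nearly the same ends and lengths of 472, 472 and 473 bases. MSTRG.12263.1 had 355095, 0 and 90273 reads in LPS_ES_PMMA 1 to 3, against 492349, 483700 and 308697 in LPS_PMMA 1 to 3. In LPS_ES_PMMA 2, where it had 0 reads (a count of 0 allows up to 0.000267% of the column total), MSTRG.12263.2 had 54283, against 3604 to 15707 in the other libraries. That bound covers counting error only. It does not show that the RNA was absent, because transcripts with nearly the same ends share reads. MSTRG.12263.1 and MSTRG.12263.2 together held 24.4%, 16.8% and 6.66% of the reads of the 7SL interval in LPS_ES_PMMA 1 to 3. They held 21.3%, 26.5% and 20.3% in LPS_PMMA 1 to 3. LPS_ES_PMMA 3 was lowest, and the groups overlapped. The cause of these divisions was not tested, and the sum over the interval is used below.

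A shorter transcript of the 7SL interval, MSTRG.12264.2, had 58016 reads in LPS_PMMA 3 and 10 to 9505 in the other libraries. MSTRG.25364.18 took 12.5%, 0% and 28.2% of the reads of the chromosome 17 interval in LPS_ES_PMMA 1 to 3, against 30.8%, 18.4% and 7.40% in LPS_PMMA 1 to 3. The Rpph1 interval was steadier, with 3.50 to 4.94% of its reads under the 3 transcripts of MSTRG.17530 in every library. In all, 15 features made up the 5 intervals, and 7 further listed features that overlap them by listed position had summed counts of 4 to 371. Annotated and assembled features are listed with the local shift between them, so these overlaps are of the listed numbers and may not be of the genome. Of those 7, NONMMUT141907.1 and NONMMUT141906.1 are listed within the wide 7SL span and had the most reads.

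**Figure D2:**
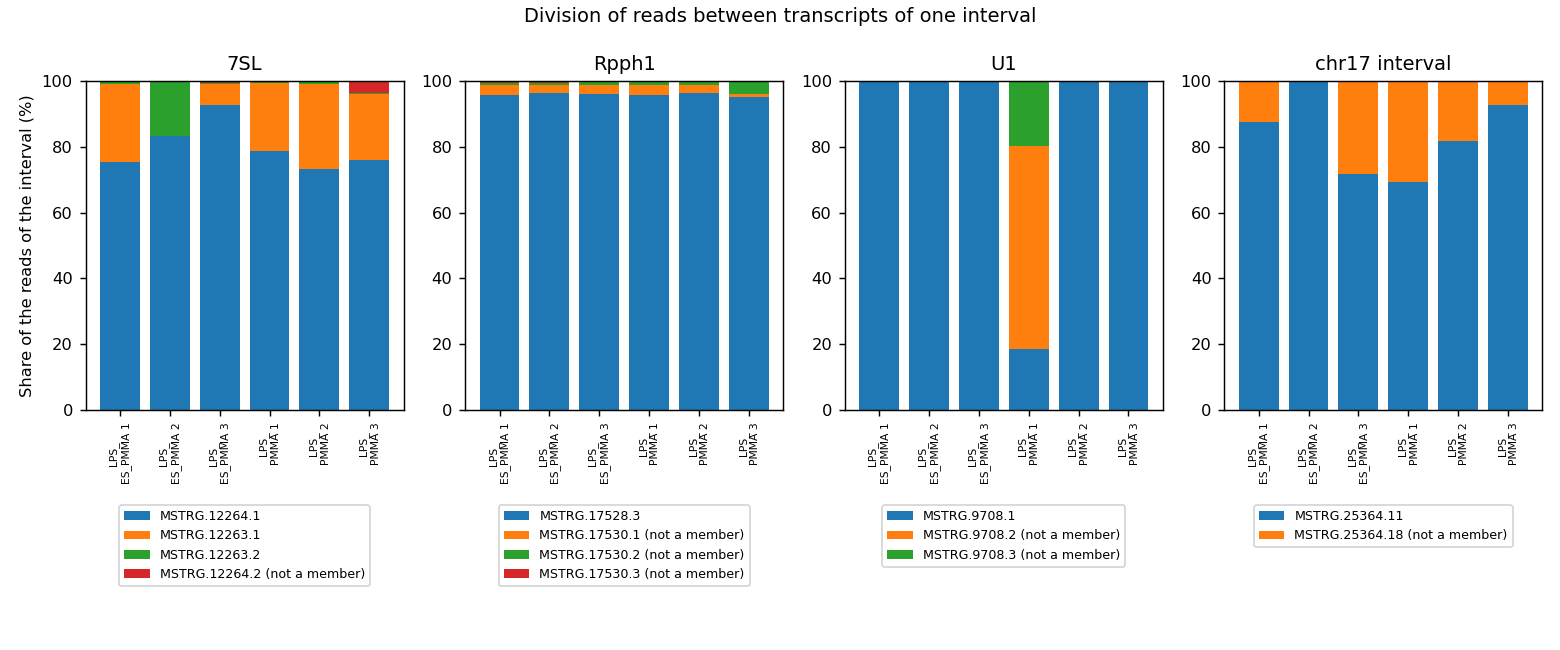
Share of the reads of an interval (percent) held by each of its transcripts, 1 bar per library, for 7SL, Rpph1, U1 and the chromosome 17 interval. The Rmrp interval is not shown. The green part of the 7SL bar of LPS_ES_PMMA 2 is MSTRG.12263.2, and LPS_PMMA 1 is the only library in which MSTRG.9708.1 held less than all U1 reads (18.5%).

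None of the 5 intervals passed edgeR's quasi-likelihood test at a Benjamini-Hochberg adjusted p of 0.05, and 0 had an unadjusted p under 0.05. Of the 8871 features and intervals tested, 422 or 4.76% were called, 193 (2.18%) higher and 229 (2.58%) lower in LPS_ES_PMMA, and 0 of 5 is near that rate. With scaling by column totals the calls were 300 higher and 68 lower, and with scaling by the totals that FPKM imply they were 247 higher and 94 lower. DESeq2 called 0 of the intervals and had 2 with an unadjusted p under 0.05. Of the 8871 features and intervals, DESeq2 called 516, 210 higher and 306 lower in LPS_ES_PMMA. Unadjusted p under 0.05 was not counted over all features, so whether 2 of 5 is unusual cannot be told.

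The fitted log2 fold changes, LPS_ES_PMMA over LPS_PMMA, were all below 0 after TMM scaling, which sets most features equal between libraries. For 7SL the change was -1.29 (SE 0.62, edgeR adjusted p = 0.274), and scaled levels lay at 357449, 160294 and 462982 CPM (counts per 1000000) in LPS_ES_PMMA 1 to 3, against 1146869, 719990 and 523348 in LPS_PMMA 1 to 3. These levels did not overlap, and of all features tested 14.6% did not overlap and were lower in LPS_ES_PMMA, while 16.2% did not overlap and were higher. The CPM of LPS_PMMA 1 is above 1000000 because TMM multiplied its total by 0.561. Rpph1 had -0.99 (SE 0.49, edgeR adjusted p = 0.286) and Rmrp had -0.76 (SE 0.55, edgeR adjusted p = 0.464), both with overlapping levels. The chromosome 17 interval had -0.99 (SE 0.59, edgeR adjusted p = 0.369) with levels of 1111 to 5626 CPM in LPS_ES_PMMA and 5940 to 11310 CPM in LPS_PMMA, without overlap. With every transcript of that interval counted, the levels were 6097, 1111 and 7832 CPM in LPS_ES_PMMA 1 to 3, against 16339, 8322 and 6414 CPM in LPS_PMMA 1 to 3, and overlapped. U1 had -0.19 (SE 0.55, edgeR adjusted p = 0.879), or -0.84 (SE 0.41, edgeR adjusted p = 0.281) with all 3 of its transcripts.

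Over all settings tried, adjusted p ran from 0.0985 to 0.488 for 7SL, from 0.200 to 0.703 for Rpph1, from 0.240 to 0.954 for Rmrp, from 0.336 to 0.661 for the chromosome 17 interval and from 0.281 to 0.988 for U1. Scaling by column totals moved the median fold change of all tested features to 0.80, and by FPKM-implied totals to 0.46, from 0.03 under TMM. Relative to that median, 7SL was at -1.31 under TMM, -1.32 under column totals and -1.24 under FPKM-implied totals. Rmrp was at -0.79, -0.83 and -0.75 in the same order of scalings, Rpph1 at -1.02, -0.98 and -0.95, the chromosome 17 interval at -1.02, -1.09 and -0.95, and U1 at -0.22, -0.40 and -0.34. Unadjusted for the median, U1 changed sign, with 0.40 under column totals and 0.12 under FPKM-implied totals. These U1 values count MSTRG.9708.1 alone, which held 18.5% of the U1 reads of LPS_PMMA 1. With every transcript U1 was at -0.84 under TMM, and the other scalings were not run.

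**Figure D3:**
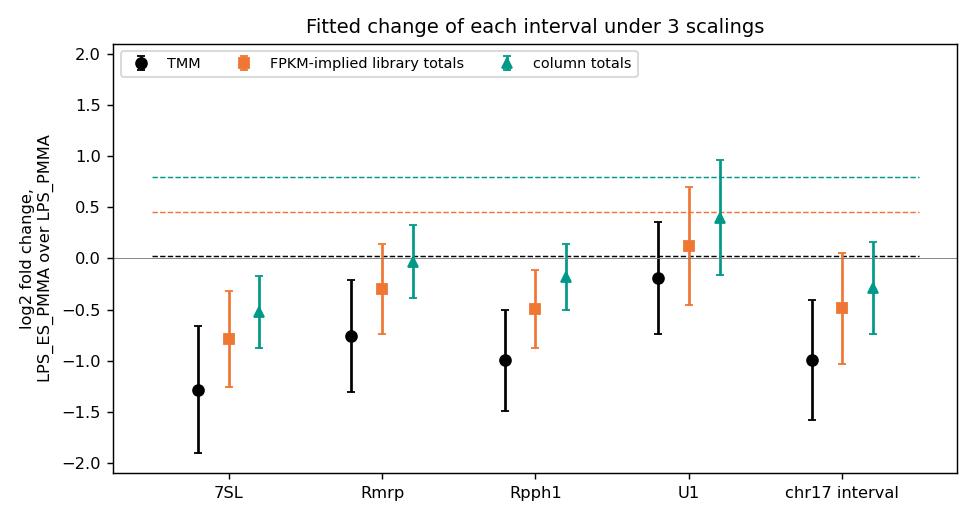
Fitted log2 fold change of each interval (LPS_ES_PMMA over LPS_PMMA, edgeR, error bars 1 SE) under 3 scalings, with dashed lines at the median of all tested features. 7SL lies at -1.24 to -1.32 relative to the median under each scaling, and U1 is above 0 under column totals (0.40) and FPKM-implied totals (0.12). U1 is counted by MSTRG.9708.1 alone. With every transcript it was at -0.84 under TMM.

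Of the 7 features as deposited, 0 passed (background 4.76%, with 2.18% higher and 2.58% lower), with edgeR adjusted p from 0.327 to 0.882 and 6 of 7 fold changes below 0. The exception was MSTRG.12263.2, with a log2 fold change of 1.22 (edgeR adjusted p = 0.569), which was -1.07 without LPS_ES_PMMA 2. MSTRG.17530.2, a minor transcript of the Rpph1 interval, had 1017, 324 and 1115 reads in LPS_ES_PMMA 1 to 3, against 1550, 1208 and 3733 in LPS_PMMA 1 to 3. Its fold change was -1.72 (SE 0.46, edgeR adjusted p = 0.0827; DESeq2 adjusted p = 0.0131). The authors' deposited table marks it as down with a q of 0.0197. The authors' deposited table gives the 7 features q values from 0.231 for MSTRG.12264.1 to 1 for MSTRG.9708.1 and marks none. That table also marks MSTRG.9708.2 (q = 0.00237) and MSTRG.9708.3 (q = 0.00336) as down, although their reads stem from LPS_PMMA 1 alone. The authors' deposited table marks MSTRG.12264.2 of the 7SL interval as down too, with a p of 0.0381 and a q of 0.386. Neither MSTRG.9708.2 nor MSTRG.9708.3 passed the low-count filter used here; with no filter edgeR gave adjusted p values of 0.229 and 0.233.

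Ratios between intervals within a library do not depend on its total. 7SL over Rmrp was 11.3, 9.15 and 7.56 in LPS_ES_PMMA 1 to 3, against 12.5, 13.3 and 12.4 in LPS_PMMA 1 to 3. All LPS_ES_PMMA ratios lay below all LPS_PMMA ratios, and the LPS_PMMA ratios were close together. The mean log2 difference was -0.47 (exact permutation p = 0.1, two-sided, n = 3 each, the smallest possible) and ran from -0.62 to -0.33 with each library left out. Of all other tested features and intervals, 2.01% had ratios to Rmrp that did not overlap and were lower in LPS_ES_PMMA, and 19.4% had higher ones without overlap. These ratios were chosen after values were seen, and of the 5 computed 1 did not overlap.

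7SL over Rpph1 was 12.6, 7.67 and 10.1 in LPS_ES_PMMA 1 to 3, against 12.1, 12.4 and 14.4 in LPS_PMMA 1 to 3, with overlap (exact permutation p = 0.3, two-sided, n = 3 each). Rmrp over Rpph1, the RNAs of related ribonucleases, was 1.12, 0.839 and 1.34 in LPS_ES_PMMA 1 to 3, against 0.966, 0.932 and 1.16 in LPS_PMMA 1 to 3. It was near 1 in all libraries, and the groups overlapped (exact permutation p = 0.7, two-sided, n = 3 each). 7SL over U1, with every transcript of each, was 87.7, 50.4 and 64.1 in LPS_ES_PMMA 1 to 3, against 99.6, 80.0 and 100.0 in LPS_PMMA 1 to 3. LPS_ES_PMMA 1 lay above LPS_PMMA 2, so these groups overlapped. 7SL over the chromosome 17 interval was highest in LPS_ES_PMMA 2, at 144.2, and 67.0 to 106.0 in the other libraries.

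**Figure D4:**
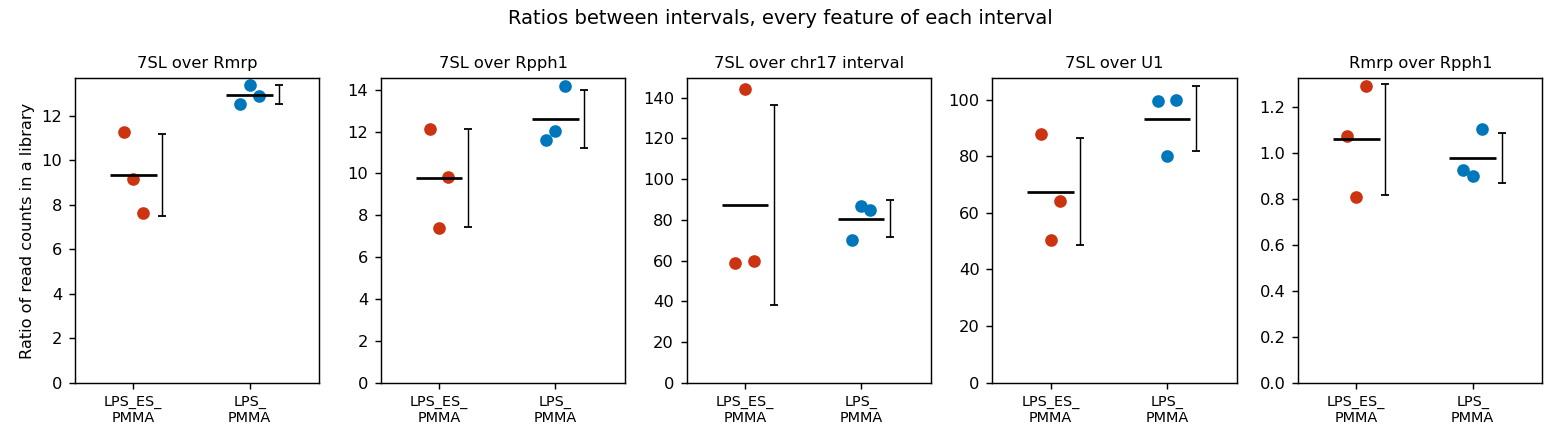
Ratio of read counts between pairs of intervals within a library, with every transcript of each interval counted; points are libraries, and bars with whiskers are the mean and SD of a group. 7SL over Rmrp is 7.61 to 11.3 in LPS_ES_PMMA and 12.5 to 13.4 in LPS_PMMA, and the other 4 ratios overlap.

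The 7 features together took 55.0%, 36.4% and 57.5% of the column total in LPS_ES_PMMA 1 to 3, against 75.6%, 67.6% and 60.2% in LPS_PMMA 1 to 3. They took most of every column total but that of LPS_ES_PMMA 2. The TMM factor, by which a library's total is multiplied, was 1.29, 1.79 and 0.986 in LPS_ES_PMMA 1 to 3, against 0.561, 0.797 and 0.982 in LPS_PMMA 1 to 3. Libraries ordered by this factor stood in the reverse order of their share of the 7 features in 6 of 6 places. Both quantities divide by the same total, so this order is a description.

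With the 7 features left out before scaling, the factors were 1.13, 1.13 and 0.917 in LPS_ES_PMMA 1 to 3, against 0.904, 0.972 and 0.975 in LPS_PMMA 1 to 3. The highest factor was 1.25 times the lowest, against 3.19 times with them. The scaled totals nevertheless kept their proportions, at 2.50 to 2.54 times those without the 7 features in each library, and the calls over the table were 416, against 422 with the 7 features in the scaling. The number of features with at least 1 read was 21191, 18939 and 20274 in LPS_ES_PMMA 1 to 3, against 17623, 18533 and 19230 in LPS_PMMA 1 to 3. LPS_PMMA 1, with the highest share of the 7, had the fewest features. Libraries ordered by this number stood in the reverse order of that share in 2 places, against 6 for the TMM factor. LPS_ES_PMMA 2, with the lowest share, had 18939 features, fewer than LPS_PMMA 3. It also had the fewest reads outside the 7 features, 714795, against 903342 to 1467457 in the other libraries. Among those other libraries, more such reads went with more features. Whether these reads set the number of features was not tested. The 5 most abundant other features held 13.8%, 18.9% and 16.01% in LPS_ES_PMMA 1 to 3, against 6.30%, 10.0% and 12.9% in LPS_PMMA 1 to 3. They were NONMMUT118967.1, NONMMUT107430.1, NONMMUT117693.1, MSTRG.12264.2 and MSTRG.11187.1. MSTRG.12264.2 belongs to the 7SL interval, so the sum over these 5 includes 7SL reads that made up as much as 2.02% of a column total (LPS_PMMA 3). NONMMUT118967.1 held 11.6%, 15.8% and 13.4% in LPS_ES_PMMA 1 to 3, against 3.77%, 6.73% and 7.38% in LPS_PMMA 1 to 3. Its groups did not overlap, and its part in the lower 7SL share was not tested.

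**Figure D5:**
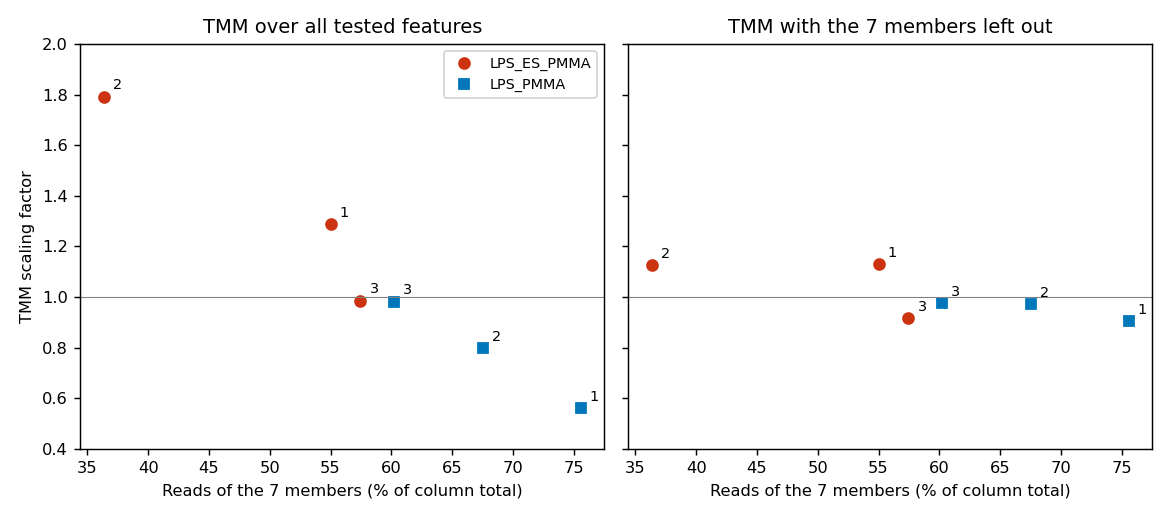
TMM scaling factor against the share of the column total held by the 7 features (percent), numbered by replicate; left with all tested features in the scaling, right with the 7 left out. The factors span 0.561 to 1.79 on the left and 0.904 to 1.13 on the right.

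Other RNAs of the same kind were nearly absent from the table under their own names. Of a list of structured RNAs, 3 features were listed, and Rmrp alone passed the filter on low counts. Scarna6, a guide RNA of Cajal bodies, had 4 to 14 reads in LPS_ES_PMMA libraries and 0 to 4 in LPS_PMMA libraries. The annotated Rn7s2 had 2 to 8 reads in LPS_ES_PMMA libraries and 0 to 3 in LPS_PMMA libraries, although the assembled transcripts of the 7SL interval held 322765 to 2380106. As a yardstick of RNA polymerase II transcripts, 8 features of well-known long non-coding RNAs were listed, 3 were tested and 0 were called. Kcnq1ot1, an imprinted antisense RNA, had 1064, 875 and 868 reads in LPS_ES_PMMA 1 to 3, against 1312, 1743 and 1762 in LPS_PMMA 1 to 3 (log2 fold change -0.99, SE 0.28, edgeR adjusted p = 0.0922). Neat1, the scaffold of paraspeckles, had 221, 83 and 157 reads in LPS_ES_PMMA 1 to 3, against 91, 46 and 61 in LPS_PMMA 1 to 3 (log2 fold change 0.81, SE 0.37, edgeR adjusted p = 0.250). Lncpint, an RNA that p53 induces, had 0.11 (edgeR adjusted p = 0.903); Snhg18 and Mirt1, the next by mean count, were not tested, with 3 to 8 and 0 to 33 reads a library.

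Features with the profile most like an interval were found by Pearson's r of log2(CPM + 1) over the 6 libraries, among 1133 features with a mean count of at least 100. These profiles share the library scaling, so r is a description. For 7SL they were MSTRG.22817.1 (0.999), MSTRG.10320.1 (0.998) and MSTRG.55762.3 (0.994), among 55 features above 0.95. For Rmrp they were MSTRG.52184.6 (0.992), NONMMUT084676.1 (0.992) and MSTRG.12126.1 (0.991). For Rpph1 they were MSTRG.56982.1 (0.993), ENSMUST00000180255 (0.989), which the table names Gm11942, and MSTRG.51715.2 (0.989). For the chromosome 17 interval they were NONMMUT063617.2 (0.994), MSTRG.47642.1 (0.988) and NONMMUT058800.2 (0.987). For U1, counted by MSTRG.9708.1, they were MSTRG.11303.2 (0.937), NONMMUT126182.1 (0.937) and MSTRG.9737.3 (0.896), and 0 features lay above 0.95.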

How the data were processed

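Non-coding RNA of 6 libraries of RAW264.7 cells was measured by RNA sequencing of 1.3 ug total RNA each with a SMARTER mRNA library kit, per the labels' protocols. The titles give group and replicate. The deposited count columns hold reads per transcript as whole numbers that are not normalized, per the file headers; 0 sample columns were left unused. The FPKM columns are the authors', per the file headers, and their ratio to counts and length implies 1 library total per sample. The authors' comparison, deposited as log2 fold change, p-value and q-value, was made with edgeR, per the name of the table. No source used here gives the aligner, assembler, counter or strand setting; the submitters' processing notes name mm10. An mRNA kit that selects polyadenylated RNA, or counting that keeps or drops reads with several matches, could change the level of these RNAs.

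The members, intervals, lists and tests were chosen with earlier results of these data known. The 7SL sequence is not reported here. Reads of member transcripts that overlap were summed per interval. An alternative sums every feature with a member's assembled gene number or at least 90% reciprocal overlap, and it was chosen after seeing the data. The whole table was then fitted with edgeR 4.0.16 in R 4.3.3 (filterByExpr with a minimum count of 10 and total of 15, TMM, glmQLFTest, no covariates), with Benjamini-Hochberg adjustment over 8871 tested features and a threshold of 0.05. SE was taken as |log2 fold change| divided by the root of F. Fold changes use a prior count of 0.125. The common biological coefficient of variation was 0.415. Shares and ratios were compared with exact two-sided permutation tests over libraries (SciPy 1.17.1), and shares of a library have 95% Wilson intervals; these cover counting error only, since reads lack molecular identifiers. A count of 0 was read against a floor of 3 counts. The script was tested on simulated data. Other scalings (column totals, RLE, FPKM-implied totals, members left out), DESeq2 1.42.0, edgeR with robust estimation, limma 3.58.1 on log2(FPKM + 0.1) and log2(FPKM + 1), no filter, a replicate block and leaving out each library were tried as alternatives. Named features are the members, their intervals and overlapping features, tested members of both lists and the 5 of the long non-coding list with the highest mean count, the 5 most abundant other features, and the 3 most alike to each interval.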

Additional observations from a re-analysis of the deposited data

How the results depend on the processing

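The 5 intervals missed the threshold under all 19 settings. 7SL, Rmrp, Rpph1 and the chromosome 17 interval kept a log2 fold change below 0 in each. With 1 library left out in turn, 7SL ranged from -1.65 to -0.94, Rmrp from -1.37 to -0.41, Rpph1 from -1.39 to -0.61, the chromosome 17 interval from -1.34 to -0.53, and U1 from -0.64 to 0.33. U1 also turned to 0.40 under column totals, 0.12 under FPKM-implied totals and 0.40 with limma at either pseudocount. MSTRG.9708.1 gave the same values (0.40, 0.12 and 0.40, and -0.64 to 0.33 with 1 library left out). It alone was counted for U1 in these settings. With every transcript U1 was fitted under TMM only, at -0.84. MSTRG.12263.2 ranged from -1.07 to 1.80 with 1 library left out. MSTRG.17530.1 and MSTRG.17530.3 turned to 0.045 and 0.061 under column totals.

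The share differences with 1 library left out ranged from -20.7 to -11.9 points for 7SL, from -0.910 to 0.540 for Rmrp, from -1.003 to -0.132 for Rpph1, from -0.210 to 0.034 for the chromosome 17 interval and from -0.023 to 0.278 for U1. For U1 the share difference was -0.100 over totals without the 7 features and -0.029 with every transcript. Log2 ratios, counted from the 7 features, ranged from -0.62 to -0.33 for 7SL over Rmrp and from -0.55 to -0.19 for 7SL over Rpph1. They ranged from -0.40 to 0.15 for 7SL over the chromosome 17 interval and from -0.064 to 0.275 for Rmrp over Rpph1. For 7SL over U1 the range was -1.80 to -0.42 with MSTRG.9708.1 alone counted for U1. With every transcript of both intervals that range was -0.71 to -0.31.

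The 422 calls over the table became 174 with no filter on low counts (24815 features tested), 42 with a replicate block, and 49 to 139 with 1 library left out; fewer libraries enter the last of these, and the cause was not tested for the others. Same-numbered libraries deviated with correlations of -0.020, -0.024 and -0.093, and differently numbered ones with -0.072 to 0.104. Deviations were taken from the mean of each small group, which ties these correlations together. They cannot decide whether the numbers pair libraries. The block changed no call among the intervals.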

Other observations

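A further pair of assembled transcripts varied in opposite directions in the shallowest library; it was noticed after values were seen. MSTRG.59446.1 and MSTRG.59446.3 are the only 2 features on the sequence MU069435.1, a name that GENCODE M21 lacks. MSTRG.59446.1 had 2034, 26618 and 18353 reads in LPS_ES_PMMA 1 to 3, against 4752, 2588 and 2741 in LPS_PMMA 1 to 3. MSTRG.59446.3 had 9821, 213 and 5419 reads in LPS_ES_PMMA 1 to 3, against 7218, 6991 and 5840 in LPS_PMMA 1 to 3. LPS_ES_PMMA 2 was highest in MSTRG.59446.1 and lowest in MSTRG.59446.3. Their summed raw counts were 11855, 26831 and 23772 in LPS_ES_PMMA 1 to 3, against 11970, 9579 and 8581 in LPS_PMMA 1 to 3. The raw counts overlapped between LPS_ES_PMMA 1 and LPS_PMMA 1. The column totals of these 2 libraries were 3261653 and 3697638, so the overlap of raw counts does not carry over to shares. As a share of the column total, the summed pair was higher in every LPS_ES_PMMA library than in any LPS_PMMA library. Such shares are common: 34.5% of the 8871 features and intervals tested did not overlap and were higher in LPS_ES_PMMA. Neither transcript passed edgeR's test, with log2 fold changes of 2.21 (adjusted p = 0.235) and -0.96 (adjusted p = 0.563).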
